A study of Mus musculus with 6 samples.

Results

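Reactive astrocyte genes are described here through 10 genes, Gfap, Vim, Serpina3n, Timp1, Cd44, Osmr, Lcn2, Aspg, Steap4 and S1pr3, taken by gene symbol from a table of raw read counts of 43346 genes. All 10 were present once. The RNA came from the cerebellum of mice aged 15 months, 3 wild-type (Tmem106b+/+, WT) and 3 homozygous knockouts (Tmem106b-/-, KO), with 1 female and 2 males in each genotype and 1 library per mouse. The labels name no strain, no other allele and no treatment, and they do not say how the allele was made or whether it acts in every cell. Tmem106b encodes a protein of the lysosomal membrane, and the study's title concerns Purkinje cells, the inhibitory output neurons of the cerebellar cortex.

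Astrocytes, which in the cerebellum include the Bergmann glia that ensheath Purkinje cells, answer injury, inflammation and the death of neighbouring neurons with a change of state called reactivity. Cytokines of the interleukin-6 family, among them oncostatin M, signal through receptors that share the subunit gp130 to the transcription factor STAT3, and STAT3 drives Gfap and other genes of the reactive state. The 10 genes cover filaments of the cytoskeleton, secreted protease inhibitors and a secreted lipocalin, receptors of the cell surface, and enzymes. Other cells also express several of them, Vim and S1pr3 in blood vessels, Cd44 and Timp1 in immune and connective tissue cells, and Lcn2 in neutrophils.

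Library totals ran from 25245778 to 31135185 counts. Tmem106b, the check of the genotype labels, was at 245 ± 19.4 (WT) and 66.8 ± 3.64 CPM (KO) (SD, n = 3 each), where CPM is the count relative to the library total after scaling by the trimmed mean of M values. Purkinje and granule cell markers were detected throughout (8 of 8 tested in each list), as cerebellar tissue contains, and so were all 21 astrocyte and Bergmann glia genes. WT replicate 1, a female, stood apart on the first principal component (-40.1 against -10.8 to 22.04), and KO replicate 1, the other female, on the second (38.5 against -14.4 to 5.98). Summed choroid plexus markers were at 85.3 CPM in WT replicate 1 and at 1636 to 5115 CPM in the other libraries, so this tissue was unequally present.

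Gfap, Serpina3n and Timp1 rose in KO, and none of the 10 genes fell. Gfap reached 1.84 times, Serpina3n 2.39 times and Timp1 3.10 times the WT mean. The cytokine receptor gene Osmr (1.79 times), the asparaginase gene Aspg (1.54 times), the sphingosine 1-phosphate receptor gene S1pr3 (1.38 times) and Cd44 (1.33 times) had higher KO means without passing the test, Vim and Steap4 had nearly equal means, and Lcn2 was uneven between KO mice. The test was edgeR's quasi-likelihood test with sex in the model and Benjamini-Hochberg adjustment across the table and a threshold of 0.05. It could be run on 9 of the 10 genes, as Lcn2 had too few counts. It called 3 of the 9, against 0.283% of the 16934 genes tested in either direction and 0.136% in the higher direction. The median log2 fold change of the 9 was 0.61, against 0.00029 over all genes tested. Of the 9 tested genes, 6 had 3 KO libraries above 3 WT libraries, which held in either direction for 14.1% of all genes tested. Lcn2, not tested, did so only by 0.275 CPM in KO replicate 2 against 0.27 CPM in WT replicate 3, from 8 counts in each. In bulk tissue, more cells of a type and more RNA per cell cannot be told apart.

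**Figure D1:**
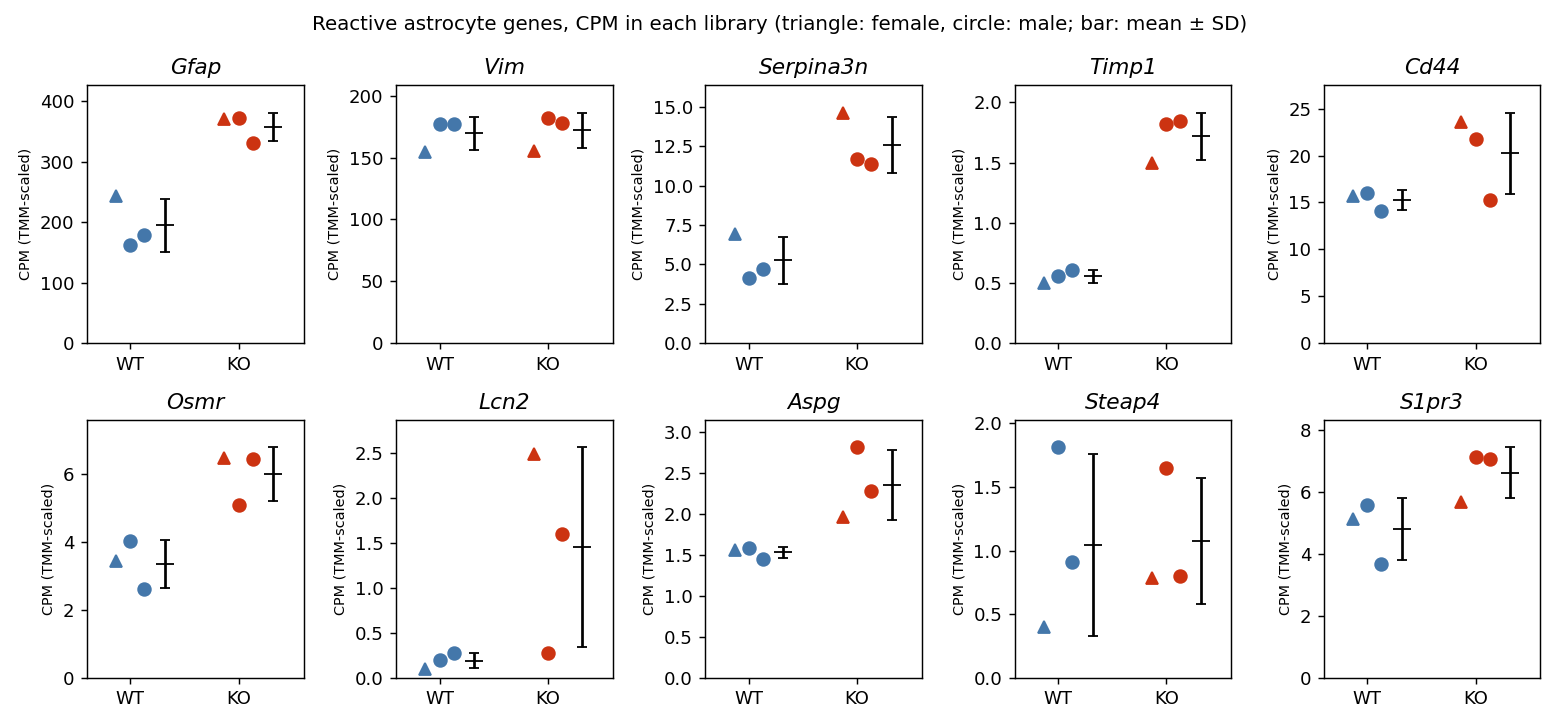
Scaled CPM (vertical axes, from 0, one scale per gene) of the 10 genes in the 3 WT (blue) and 3 KO (red) libraries, with triangles for females, circles for males and the black bar for mean ± SD. Gfap, Serpina3n and Timp1 separate the genotypes widely, Vim and Steap4 overlap, and Lcn2 is high in 2 of 3 KO libraries.

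Gfap encodes glial fibrillary acidic protein, the intermediate filament that defines astrocytes, and lies on chromosome 11 at 102887336 to 102900912 of mm10 on the minus strand. Its level was 244, 162 and 179 CPM in WT replicates 1 to 3 and 370.4, 373 and 331 CPM in KO replicates 1 to 3. The WT female was the highest of the controls and still lay below every KO mouse. The log2 fold change was 0.90 (SE 0.10, adjusted p = 0.0214 in edgeR). Vim encodes vimentin, the filament protein that assembles with GFAP in reactive and immature astrocytes. It gave 154, 178 and 177 CPM in WT and 156, 182 and 178 CPM in KO, with the female lower than the males in both genotypes. The Vim log2 fold change was 0.02 (95% interval -0.11 to 0.15, edgeR adjusted p = 0.94), an interval that excludes a difference of the size seen for Gfap. In KO replicate 1, Gfap stood 0.95 above and Vim 0.12 below the WT mean on the log2 scale.

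Serpina3n encodes a secreted serine protease inhibitor, the mouse relative of human alpha-1-antichymotrypsin, and lies on chromosome 12 at 104406729 to 104414329. It was at 6.95, 4.12 and 4.72 CPM in WT and at 14.6, 11.7 and 11.4 CPM in KO. As for Gfap, the WT female was the highest control, and every KO library exceeded it by more than the spread within either genotype. The log2 fold change was 1.28 (SE 0.13, edgeR adjusted p = 0.0134). The gene belongs to a cluster of close paralogs that can share reads. Of the 10 paralogs looked up, 3 held 0 counts in every library and only Serpina3g had enough counts to test, at 0.31 ± 0.20 (WT) and 0.75 ± 0.24 CPM (KO) (SD, n = 3 each; edgeR adjusted p = 0.518).

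Timp1 encodes a secreted inhibitor of matrix metalloproteinases and lies on the X chromosome at 20870166 to 20874735. It was at 0.50, 0.56 and 0.61 CPM in WT and at 1.495, 1.82 and 1.85 CPM in KO, from 15 to 18 and from 38 to 53 counts. The groups lay far apart, with little spread inside each. The log2 fold change was 1.62 (SE 0.23, edgeR adjusted p = 0.044). Timp1 sits on the plus strand inside the synapsin gene Syn1, which is on the minus strand and far more abundant (6859 against 32 mean counts), and the annotated exons of the pair do not overlap. The strand setting of the counting is not given in the sources used here, so intronic Syn1 reads could enter the Timp1 counts. Syn1 itself was at 239 ± 15.3 (WT) and 239.7 ± 16.1 CPM (KO) (SD, n = 3 each). Per 100 Syn1 counts there were 0.195, 0.248 and 0.258 Timp1 counts in WT and 0.579, 0.789 and 0.802 in KO. The log2 ratio was 1.63 (exact two-sided permutation p = 0.1, the smallest that 3 against 3 allow). Syn1 was level between genotypes, so this division had to return nearly the Timp1 fold change. It does not measure intronic Syn1 reads, and their part in the Timp1 counts was not tested.

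The 3 calls rested on some libraries more than on others. Without WT replicate 2 the edgeR adjusted p-values of Gfap, Serpina3n and Timp1 were 0.154, 0.134 and 0.221, and without WT replicate 3 they were 0.223, 0.185 and 0.31. In those fits 0 of the 10 genes passed, and 1 gene of the whole table did, Tmem106b (0.00582% and 0.00581% of the genes tested). The log2 fold changes of the 3 genes were still 0.81, 1.19 and 1.58 without WT replicate 2 and 0.89, 1.298 and 1.65 without WT replicate 3. Timp1 also missed the threshold without WT replicate 1 (adjusted p = 0.0585), without KO replicate 1 (0.0567), without KO replicate 2 (0.184) and in the males alone (0.0539), with log2 fold changes of 1.63 to 1.64. Gfap and Serpina3n passed in each of these 4 fits, which called 0.54%, 0.679%, 0.0929% and 0.651% of all genes. All 3 genes passed without KO replicate 3 (0.906% of all genes called), in limma-voom (0.254%), with RLE size factors (0.443%), with a mean of at least 1 CPM (0.514%), with edgeR's newer quasi-likelihood version (0.331%), with no sex term (0.36%) and with GC content and length offsets (1.6%). At a threshold of 0.10, with 0.644% of all genes called, the count of the 10 genes was still 3.

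**Figure D2:**
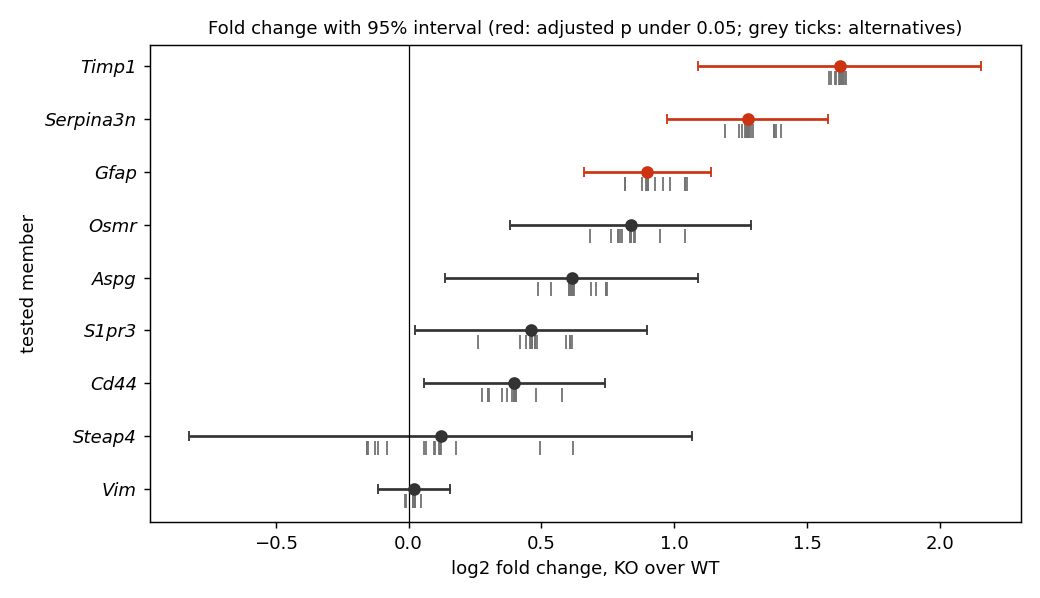
Log2 fold change, KO over WT (horizontal axis), of the 9 tested genes with 95% intervals (lines) and the value under each alternative fit (grey ticks), red for an edgeR adjusted p under 0.05. The ticks of Timp1 stay between 1.58 and 1.65, and those of Steap4 and Vim lie on both sides of 0.

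The KO difference was also read within each sex. In the females, 1 mouse of each genotype, the log2 ratio of KO to WT was 0.60 for Gfap, 1.07 for Serpina3n, 1.58 for Timp1, 0.91 for Osmr and 0.01 for Vim. In the males, means of 2 mice each, it was 1.05 for Gfap, 1.38 for Serpina3n, 1.65 for Timp1, 0.80 for Osmr and 0.02 for Vim. The genotype by sex interaction of Gfap, female minus male, was -0.45 on the log2 scale (SE 0.13, unadjusted p = 0.00886, adjusted p = 0.132 in edgeR). In edgeR 0 of the 9 tested members and 0 of the 16934 genes passed the interaction test, 1 member and 18.8% of all genes had an unadjusted p under 0.05, and DESeq2 called 3.18% of all genes. DESeq2 gave an adjusted p for Gfap (0.0851) and Vim (0.957) alone among the members, and neither passed. With no filter on low counts edgeR called Gfap (adjusted p = 0.00967) together with 5.98% of all genes. The female arm holds 1 library per genotype, and both of these libraries stood apart from the males in overall expression.

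The proximal promoters are shown because the 3 called genes were all higher in KO and because STAT3 is the textbook regulator of this state. Within WT their profiles differed, as WT replicate 1 was the highest control for Gfap and Serpina3n and the lowest for Timp1. Promoters of all 10 genes were found in RefSeq (GRCm38.p6), and the 250 bases before the annotated start were searched on both strands for a STAT element (TTCNNNGAA, in 7.01% of 32817 promoters of this length), an AP-1 element (TGANTCA, 6.75%), an NF-kB element (7.25%), CCAAT (33.8%) and TATAAA (12.4%). No motif overlap was removed. The RefSeq starts can differ from the gene coordinates given above. The Gfap window lies inside the gene span of 102887336 to 102900912. The sequences run 5′ to 3′ on the gene's strand, with matches in capitals. The first 3 are the called genes, and Steap4 is shown as the only one of the 10 with a STAT match.
Gfap, chr11:102897201-102897450, minus strand: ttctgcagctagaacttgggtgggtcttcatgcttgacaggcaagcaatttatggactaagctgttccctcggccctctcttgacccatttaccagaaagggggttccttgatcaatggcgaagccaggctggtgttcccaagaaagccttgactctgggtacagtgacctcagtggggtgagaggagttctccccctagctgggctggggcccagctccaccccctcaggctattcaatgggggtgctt
Serpina3n, chr12:104406458-104406707, plus strand: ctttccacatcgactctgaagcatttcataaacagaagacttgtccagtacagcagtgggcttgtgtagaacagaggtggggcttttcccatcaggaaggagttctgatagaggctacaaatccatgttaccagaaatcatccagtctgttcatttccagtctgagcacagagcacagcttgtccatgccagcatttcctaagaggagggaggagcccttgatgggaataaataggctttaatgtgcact
Timp1, chrX:20869916-20870165, plus strand: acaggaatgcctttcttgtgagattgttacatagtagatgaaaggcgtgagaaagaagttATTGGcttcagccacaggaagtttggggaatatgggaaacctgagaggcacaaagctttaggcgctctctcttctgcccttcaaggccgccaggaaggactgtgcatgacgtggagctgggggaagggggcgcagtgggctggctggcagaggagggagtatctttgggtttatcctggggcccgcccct
Steap4, chr5:7960222-7960471, plus strand: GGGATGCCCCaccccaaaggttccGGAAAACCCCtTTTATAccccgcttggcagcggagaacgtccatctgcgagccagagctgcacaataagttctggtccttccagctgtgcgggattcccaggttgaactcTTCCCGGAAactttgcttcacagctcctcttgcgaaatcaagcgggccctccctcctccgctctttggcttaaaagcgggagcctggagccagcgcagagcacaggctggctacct
Gfap and Serpina3n held none of the 5 motifs in this window, and Timp1 held 1, CCAAT on the opposite strand. Steap4 held the STAT element 116 bases before the start, 2 NF-kB matches and 1 TATAAA on the opposite strand. These are matches of letters in a short window and leave the rest of each locus unsearched.

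Lcn2 encodes lipocalin-2, a secreted protein that binds bacterial siderophores and is induced by inflammation. The WT libraries held 3, 6 and 8 Lcn2 counts and the KO libraries 63, 8 and 44, in replicate order. KO replicate 1 and KO replicate 3 were far above the controls, while KO replicate 2 (0.275 CPM) was level with the highest WT library (0.27 CPM). The means were 0.19 ± 0.085 (WT) and 1.45 ± 1.11 CPM (KO) (SD, n = 3 each). With no filter on low counts the edgeR log2 fold change was 2.79 (SE 0.91, adjusted p = 0.579). Lcn2 entered the test when a WT library or KO replicate 2 was left out. It did so only through KO replicates 1 and 3, where it was high. Without WT replicates 1, 2 and 3 in turn its log2 fold change was 1.97, 2.97 and 3.30, with edgeR adjusted p-values of 0.547, 0.495 and 0.536. It passed in 1 of these fits, the one without KO replicate 2, the KO mouse with low Lcn2 (3.36, adjusted p = 0.0412, with 0.0929% of all genes called). The filter and this omission kept only KO libraries with high Lcn2, so the call is no support for a rise across KO mice. The summed neutrophil markers, another source of this transcript, were at 0.82 to 2.26 CPM in WT and 5.08, 2.20 and 1.41 CPM in KO replicates 1 to 3, with Elane at 0 counts in every library and 3 of 9 markers testable. Neutrophil markers and Lcn2 were thus both highest in KO replicate 1, but KO replicate 3 had high Lcn2 with neutrophil markers inside the WT range. The part of these cells in the Lcn2 level was not tested.

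Osmr encodes the oncostatin M receptor subunit that pairs with gp130. It was at 3.43, 4.02 and 2.60 CPM in WT and at 6.45, 5.08 and 6.44 CPM in KO, so that the groups did not overlap. For Osmr the log2 fold change was 0.84 (SE 0.20, 95% interval 0.38 to 1.29, edgeR adjusted p = 0.188). Osmr passed in DESeq2 (adjusted p = 0.0492) together with Gfap, Serpina3n and Timp1, 4 of 9 where 1.37% of all genes were called, and in edgeR with no filter on low counts (adjusted p = 0.0311, 0.751% of all genes called). Across alternatives the adjusted p of Osmr lay between 0.0311 and 0.614.

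S1pr3 encodes a receptor for the lipid sphingosine 1-phosphate. It was at 5.12, 5.57 and 3.67 CPM in WT and at 5.67, 7.11 and 7.06 CPM in KO. The groups just failed to touch, as the KO female was barely above the highest control. For S1pr3 the log2 fold change was 0.46 (SE 0.19, edgeR adjusted p = 0.533).

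Cd44 encodes the cell surface receptor for hyaluronan and osteopontin. It was at 15.7, 16.0 and 14.1 CPM in WT and at 23.6, 21.8 and 15.3 CPM in KO. KO replicate 3 lay within the WT range and the other KO mice above it. The log2 fold change was 0.40 (SE 0.15, edgeR adjusted p = 0.476), and without KO replicate 3 it was 0.58 (adjusted p = 0.0512).

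Aspg encodes an asparaginase and Steap4 a metalloreductase that reduces iron and copper. Aspg was at 1.56, 1.58 and 1.45 CPM in WT and at 1.97, 2.82 and 2.28 CPM in KO, with a narrow control group below every KO mouse. Its log2 fold change was 0.61 (SE 0.21, edgeR adjusted p = 0.399). Steap4 was at 0.40, 1.81 and 0.91 CPM in WT and at 0.79, 1.65 and 0.80 CPM in KO, so that mice within a genotype differed more than the genotypes did. Its log2 fold change was 0.12 (SE 0.41, edgeR adjusted p = 0.952), and it was negative in 6 of 16 alternatives. WT replicate 2 and KO replicate 2, highest for Steap4, were also highest for the summed choroid plexus markers (4763 and 5115 CPM), and WT replicate 1 was lowest for both. With a choroid plexus score in place of sex in the model, an alternative chosen after seeing the data, Steap4 was at -0.12 and the 3 called genes kept their calls (0.99 for Gfap, 1.40 for Serpina3n and 1.59 for Timp1, with edgeR adjusted p-values of 0.00677, 0.00823 and 0.0413; 0.36% of all genes were called).

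**Figure D3:**
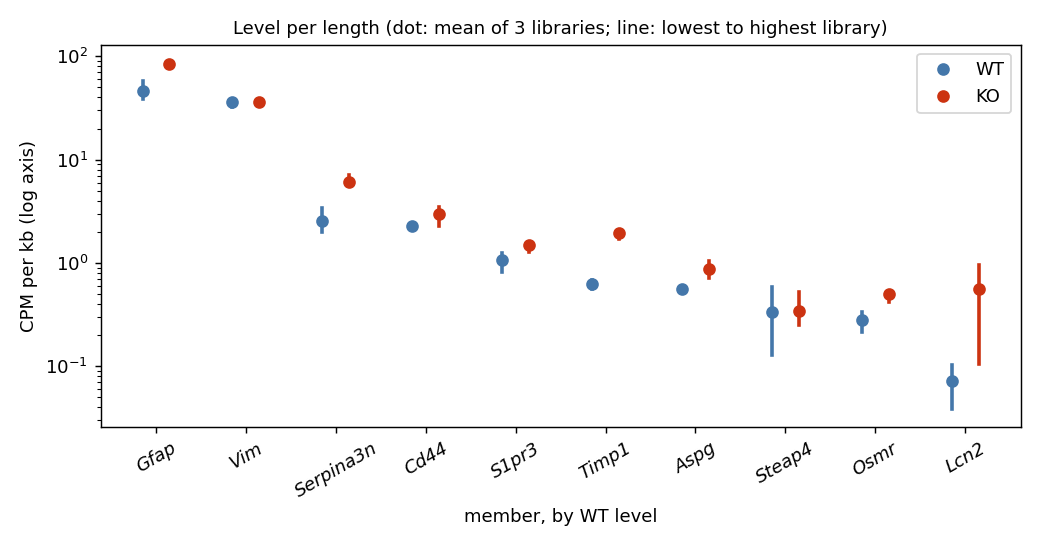
Level per length (CPM per kilobase, log axis) of the 10 genes, ordered by WT level, as the mean (dot) and the range over 3 libraries (line) in WT (blue) and KO (red). Gfap and Vim stand more than 10 times above the other genes in WT, and Timp1 passes S1pr3 in KO.

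Levels of different genes were compared per length, as CPM per kilobase of the gene length in the table. In WT, Gfap (46.2 ± 10.3) was followed by Vim (35.8 ± 2.82), Serpina3n (2.55 ± 0.72), Cd44 (2.25 ± 0.16), S1pr3 (1.07 ± 0.22), Timp1 (0.63 ± 0.06), Aspg (0.56 ± 0.026), Steap4 (0.33 ± 0.23), Osmr (0.28 ± 0.059) and Lcn2 (0.072 ± 0.032), each as mean and SD of 3 libraries. The ranges of Serpina3n and Cd44 overlapped in WT, as did those of Timp1 and Aspg, Aspg and Steap4, and Steap4 and Osmr. In KO the level of Serpina3n (6.09 ± 0.87) no longer overlapped that of Cd44 (2.99 ± 0.64), and Timp1 (1.94 ± 0.22) lay above S1pr3 (1.47 ± 0.18). The KO ranges of Aspg, Lcn2, Osmr and Steap4 overlapped from one to the next. Serpina3n and Timp1, with the largest called fold changes, thus stayed far below Gfap in level.

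The relation of the 10 genes to the cells around them was described with marker lists. Of 21 astrocyte and Bergmann glia identity genes, 0 passed in edgeR, 0 in DESeq2 and 0 in limma-voom, with 2 higher and 3 lower at an unadjusted p under 0.05 in edgeR, where 8.96% of all genes tested were under it, and a median log2 fold change of -0.01. The glutamate transporter gene Slc1a3, abundant in Bergmann glia, had a log2 fold change of -0.24 (SE 0.08, edgeR adjusted p = 0.41). The summed level of the 21 genes was 10267 to 10947 CPM in WT and 10462 to 11225 CPM in KO, so the ranges overlapped. Of 10 microglial markers, 3 rose, Lyz2 and Cd68 among them (0.283% of all genes were called), 9 had a positive log2 fold change, and the summed level was 179 to 209 CPM in WT and 277 to 319.9 CPM in KO with no marker at 0. Endothelial markers (317 to 379 CPM in WT, 347 to 376 CPM in KO) and meningeal fibroblast markers (129.6 to 355 and 216 to 350.2 CPM) had no member past the threshold in edgeR, DESeq2 or limma-voom, and 0 of 10 and 0 of 11 under an unadjusted p of 0.05 in edgeR. Of 8 Purkinje markers 6 fell, with summed levels of 9681 to 10488 CPM in WT and 6183 to 7149 CPM in KO. Without WT replicate 2 or WT replicate 3 none of the microglial or Purkinje markers passed in edgeR, and without KO replicate 2 the counts were 1 and 0. The medians of the log2 fold changes in these 3 fits were 0.58 to 0.63 for microglial and -0.61 to -0.53 for Purkinje markers. Red blood cell markers had a median of 0.56, with 5 of 5 positive, 0 past the threshold in edgeR or limma-voom, 1 in DESeq2 and 3 at an unadjusted p under 0.05 in edgeR, and their summed levels overlapped (71.8 to 88.5 CPM in WT, 77.2 to 157 CPM in KO). The part of these cells in the levels of Gfap, Serpina3n and Timp1 was not tested.

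**Figure D4:**
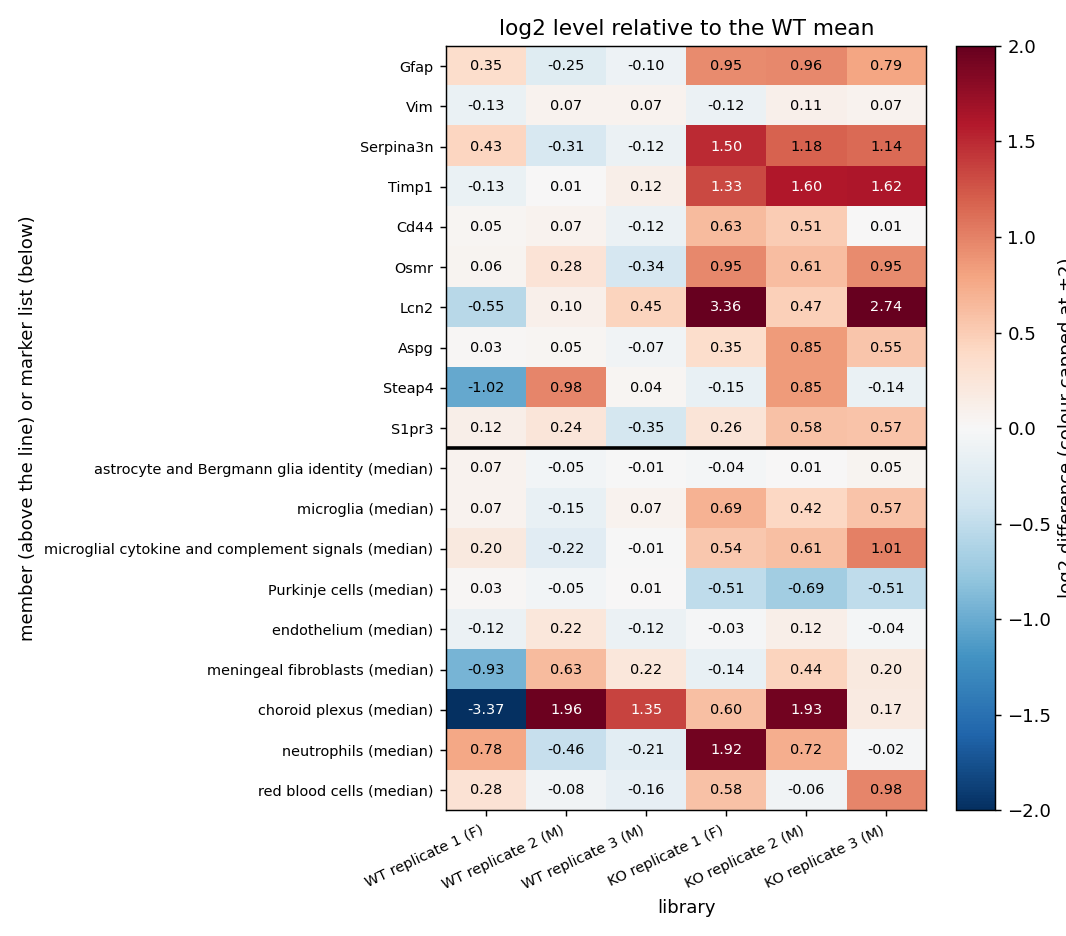
Log2 level relative to the WT mean in each library (columns, F female and M male), for the 10 genes (above the line) and the medians of marker lists (below), with red for higher and blue for lower. The KO columns are red for Gfap, Serpina3n, Timp1 and the microglial lists, blue for Purkinje cells and near 0 for astrocyte identity, and the choroid plexus row varies within both genotypes.

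The 3 genes whose profile over the 6 libraries lay nearest to that of Gfap, by the root mean square difference of centred log2 CPM among 14774 other genes averaging 1 CPM or more, were Tyrobp, Ctla2b and Tlr2 (differences of 0.15, 0.15 and 0.17). Tyrobp encodes an adaptor of microglial receptors and Tlr2 a receptor for microbial lipoproteins. Tyrobp was at 11.4, 8.14 and 9.23 CPM in WT and at 16.2, 16.7 and 19.8 CPM in KO, a log2 fold change of 0.88 (SE 0.15, edgeR adjusted p = 0.0663). Its WT female was the highest control, as for Gfap. The 3 genes were chosen for a profile like that of Gfap in these same libraries. This order and the KO rise were therefore set by the choice. The likeness is a description over 6 libraries of 2 genotypes.

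Genes around the 10 members were taken from 13 lists of ligands, receptors, partners and neighbours, 176 genes in all, of which 154 could be tested. None passed in edgeR or limma-voom, while 23 higher and 10 lower genes had an unadjusted p under 0.05 in edgeR (8.96% of all genes), and DESeq2 called 6 higher and 4 lower (1.37% of all genes). Other edgeR settings did call some, 7 higher and 3 lower with GC content and length offsets (1.6% of all genes) and 5 higher and 3 lower with no filter on low counts (0.751%). Over all alternatives at the threshold of 0.05, the genes called at least once were C1qa, C1qb, C1qc, Fbln5, Gja1, Mmp12, Mmp24, Spp1 and Tgm1, higher, and Adamts4, B3gnt5, Gdf10, Hapln4, Spns2 and Steap2, lower. With the filter on and every library in, Mmp12 and Tgm1 entered the test only through the KO libraries, where they were high. The median log2 fold change of the 154 tested genes was 0.02 in edgeR. Genes named from these lists other than the most abundant ones were chosen after their values were seen.

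Among signals and receptors upstream, 0 of 20 tested genes of the interleukin-6 family and STAT3 pathway passed in edgeR, DESeq2 or limma-voom, with 1 higher and 1 lower at an unadjusted p under 0.05 in edgeR and a median of 0.05. The kinase gene Jak1 was at -0.01 (SE 0.06) and the phosphatase gene Ptpn11 at 0.01 (SE 0.06), with edgeR adjusted p-values of 0.964 for each. Stat3 was at 57.8 ± 3.92 (WT) and 59.4 ± 2.96 CPM (KO), and Il6st, which encodes gp130, at 176 ± 1.66 and 182 ± 5.12 CPM (SD, n = 3 each). The STAT3 target gene Socs3, a feedback inhibitor, was at 1.498 ± 0.21 (WT) and 1.67 ± 0.22 CPM (KO). The ligand gene Osm had 3.17 counts per library on average, Il6 1.17 and Lif 5.17, too few to test. The log2 fold changes of the 20 genes ran from -0.30 (Pim1) to 0.24 (Cntf), against 0.84 for Osmr, which was not counted in this list. The microglial cytokine and complement list had a median of 0.74 over 7 tested genes. Of these 0 passed in edgeR or limma-voom, and 4 were higher at an unadjusted p under 0.05 in edgeR. DESeq2, with 1.37% of all genes called, had 3, C1qa, C1qb and C1qc, which encode the chains of the first complement component. C1qb was at 26.1 ± 4.17 (WT) and 43.5 ± 7.51 CPM (KO), and C1qa at 18.0 ± 4.28 and 30.99 ± 8.2 CPM (SD, n = 3 each). The cytokine genes Tnf and Il1b had 1.83 and 4.5 counts per library on average and were not tested.

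**Figure D5:**
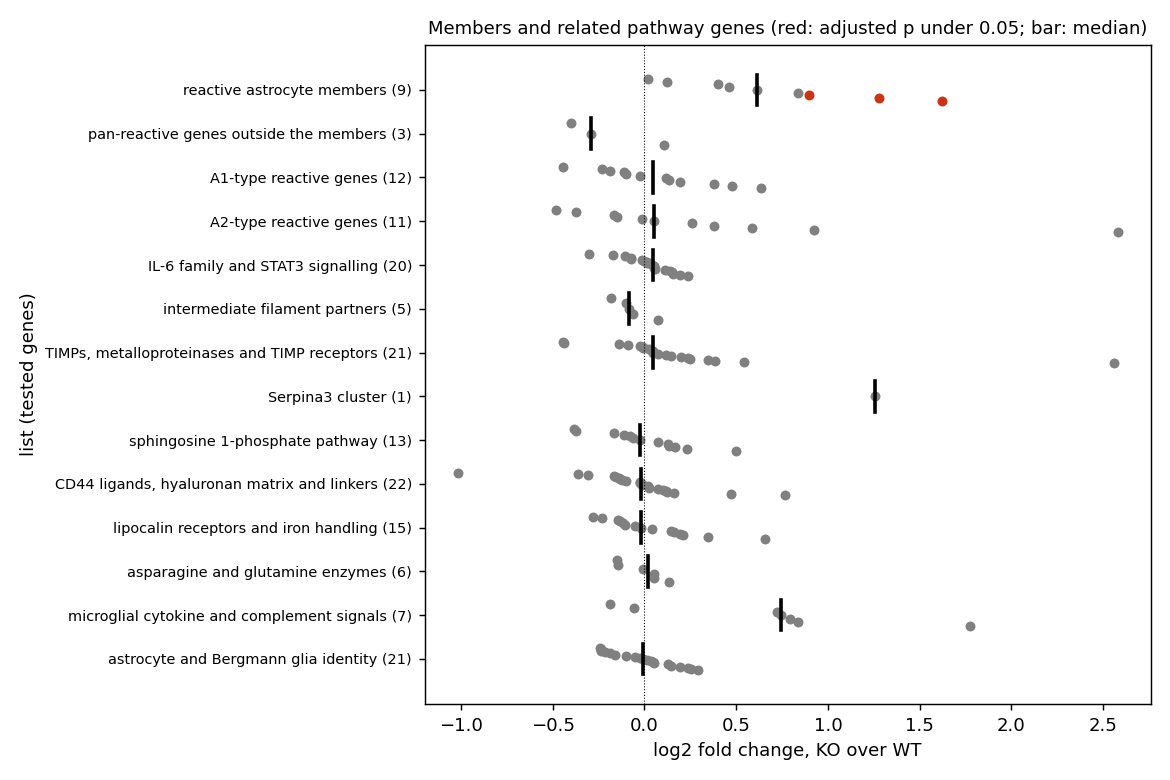
Log2 fold change, KO over WT (horizontal axis), of each tested gene (dots) in the reactive astrocyte set and 13 related lists, with the median as a black bar and red for an edgeR adjusted p under 0.05. The red dots are Gfap, Serpina3n and Timp1, and the medians of the related lists lie near 0 apart from the microglial signals (0.74), the single Serpina3 paralog and 3 further pan-reactive genes (-0.29).

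Other genes listed as markers of astrocyte reactivity did not pass in edgeR with the settings used for the 10 genes. Of 3 further pan-reactive genes, the chaperone gene Hspb1 was at -0.29 (SE 0.17), the chemokine gene Cxcl10 at -0.40 (SE 0.30) and the copper oxidase gene Cp, which encodes ceruloplasmin, at 0.10 (SE 0.19), with edgeR adjusted p-values of 0.696 to 0.899 and 0 calls in DESeq2 or limma-voom, and 0 at an unadjusted p under 0.05. Of 12 genes linked to reactivity after lipopolysaccharide, often called A1, 0 passed in edgeR or limma-voom, 2 were higher at an unadjusted p under 0.05 in edgeR, and DESeq2 called 1, the matrix gene Fbln5. The histocompatibility gene H2-D1, the most abundant of them, was at 164 ± 4.15 (WT) and 145 ± 30.3 CPM (KO) (SD, n = 3 each). Of 11 tested genes linked to reactivity after ischaemia, often called A2, 0 passed in edgeR or limma-voom. Against the same shares of all genes, 4 were higher and 1 lower at an unadjusted p under 0.05 in edgeR. DESeq2 called 1, the glycosyltransferase gene B3gnt5 (28.0 ± 0.72 (WT) and 20.2 ± 3.40 CPM (KO), SD, n = 3 each). In edgeR, B3gnt5 was also called lower with GC content and length offsets (adjusted p = 0.00884, 1.6% of all genes called) and with no filter on low counts (0.0311, 0.751%). It was called lower as well in males only (0.0306, 0.651%), without KO replicate 1 (0.0244, 0.679%) and without WT replicate 1 (0.0400, 0.54%). The transglutaminase gene Tgm1 had the largest log2 fold change of this list, 2.58 (SE 0.58, edgeR adjusted p = 0.168), on 8.67 counts per library. It had 6, 1 and 1 counts in WT and 13, 13 and 18 in KO. At the minimum count of 10 it thus entered the test only through the KO libraries, where it was high. Tgm1 passed in edgeR with GC content and length offsets (adjusted p = 0.0415), with no filter on low counts (0.0296) and with the choroid plexus score (0.0364). The last of these fits called 0.36% of all genes. The filament partners of GFAP and vimentin had a median of -0.08, and Synm, which encodes synemin, was at -0.06 (SE 0.09), Nes, which encodes nestin, at -0.10 (SE 0.15) and the linker gene Plec at 0.07 (SE 0.15). None of the 5 passed in edgeR, DESeq2 or limma-voom, with 0 at an unadjusted p under 0.05.

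Of 21 tested TIMPs, metalloproteinases and TIMP receptors, 0 passed in edgeR or limma-voom, 4 were higher and 1 lower at an unadjusted p under 0.05 in edgeR, and DESeq2 called 1 higher (Mmp12) and 1 lower (Adamts4). The paralogs of Timp1 were far more abundant, Timp3 at 189 ± 24.7 (WT) and 221 ± 14.3 CPM (KO) and Timp4 at 184 ± 17.5 and 182 ± 25.7 CPM (SD, n = 3 each). Their log2 fold changes were 0.24 (SE 0.07, edgeR adjusted p = 0.337) and -0.01 (SE 0.11, 0.987), and that of Timp2 was 0.15 (SE 0.14, 0.814). Lrp1, which encodes a clearance receptor for proteases and their inhibitors, was at -0.14 (SE 0.16), and Mmp24 at 0.20 (SE 0.10), with edgeR adjusted p-values of 0.837 and 0.615. Mmp12, which encodes the macrophage elastase, was at 0.24 ± 0.17 (WT) and 1.41 ± 0.75 CPM (KO) (SD, n = 3 each; log2 fold change 2.56, SE 0.54, edgeR adjusted p = 0.145).

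Of 22 tested genes of CD44 ligands, hyaluronan matrix and linkers, 0 passed in edgeR or limma-voom, 2 were higher and 2 lower at an unadjusted p under 0.05 in edgeR, and DESeq2 called Spp1 higher and Hapln4 lower. Spp1, which encodes the CD44 ligand osteopontin, was at 35.9 ± 5.58 (WT) and 61.3 ± 7.93 CPM (KO) (SD, n = 3 each; log2 fold change 0.77, SE 0.14, edgeR adjusted p = 0.0853). The link protein gene Hapln4 was at 189.97 ± 21.2 and 153 ± 4.49 CPM, and the matrix gene Tnr at 0.10 (SE 0.07, edgeR adjusted p = 0.753). In the sphingosine 1-phosphate pathway 0 of 13 tested genes passed in edgeR or limma-voom, with 1 higher and 1 lower at an unadjusted p under 0.05 in edgeR, and DESeq2 called the transporter gene Spns2 lower (-0.39, SE 0.10, edgeR adjusted p = 0.214). The lipid phosphatase gene Plpp3 was at -0.06 (SE 0.07, edgeR adjusted p = 0.837). S1pr1, another receptor gene of the family, was at 204 ± 7.24 (WT) and 229 ± 12.6 CPM (KO) (SD, n = 3 each).

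Of 15 tested genes of lipocalin receptors and iron handling, 0 passed in edgeR, DESeq2 or limma-voom, with 2 higher and 1 lower at an unadjusted p under 0.05 in edgeR. The ferritin gene Fth1 was at 0.19 (SE 0.08), the transferrin gene Trf at -0.11 (SE 0.10) and the lipocalin-2 receptor gene Slc22a17 at -0.12 (SE 0.12), with edgeR adjusted p-values of 0.549 to 0.817. Steap2, a relative of Steap4 at 159.6 ± 3.45 (WT) and 132 ± 6.77 CPM (KO) (SD, n = 3 each), had a log2 fold change of -0.28 (SE 0.07, edgeR adjusted p = 0.193). It passed in edgeR with GC content and length offsets (-0.35, adjusted p = 0.00751, 1.6% of all genes called). Of 6 asparagine and glutamine enzymes 0 passed in edgeR, DESeq2 or limma-voom, with 0 at an unadjusted p under 0.05, and the glutamine synthetase gene Glul had a log2 fold change of 0.05 (SE 0.09, edgeR adjusted p = 0.894).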

How the data were processed

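A single table deposited by the authors holds unnormalised read counts per gene for 6 libraries. The submitters' processing notes name STAR and the build mm10. Counter, strand setting and annotation release were not given in the sources used here. The table also gives each gene's length, per the file headers. Replicates were numbered in order of deposit. Replicates of a genotype differed beyond sampling noise (chi-square over degrees of freedom between 7.51 and 31.3), so none was a copy.

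The deposited counts entered edgeR 4.0.16 (R 4.3.3) unchanged. filterByExpr (minimum count 10, minimum total 15) kept 16934 genes, libraries were scaled by TMM, and glmQLFit (robust) held sex and genotype, with 3 residual and 5.41 prior degrees of freedom. SE is the absolute log2 fold change over the square root of F. Log2 levels relative to WT used a prior count of 2. Intervals cover 95%. DESeq2 1.42.0 and limma-voom (limma 3.58.1) were among the alternatives. GC content (99.0% of tested genes) came from GENCODE M21 transcripts. The fits were also run on simulated counts, drawn without a sex effect or an outlying library. That outcome is not reported here and is no support for the calls.

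The members, lists and tests were chosen with earlier results of these data known. Named by rule were all members, the 1 or 2 most abundant genes of each pathway list and up to 4 past the threshold (no pathway gene was), up to 3 markers per marker list, Tmem106b, the host gene Syn1 and the 3 genes nearest to Gfap. Other genes were chosen after their values were seen. Some list genes are not reported here. The totals above set the precision, and for the low genes Lcn2, Timp1, Steap4 and Aspg counting error is part of the spread.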

Additional observations from a re-analysis of the deposited data

How the results depend on the processing

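The number of reactive astrocyte genes past the threshold was 3 and ran from 0 to 3 when 1 library was left out, with 0 without WT replicate 2 and without WT replicate 3. It was 2 in the males alone and 3 to 4 in the other alternatives. Tmem106b kept its direction and call in every alternative. The median log2 fold change of the 9 tested genes was 0.61, 0.74 in males only and 0.49 to 0.75 when 1 library was left out. The number of all genes past the threshold, 48, was 75 with RLE size factors, 199 with no filter, 76 with a mean of at least 1 CPM, 232 in DESeq2, 271 with GC content and length offsets, 111 in males only, 109 at a threshold of 0.10 and 1 to 156 when 1 library was left out. Higher and lower calls numbered 23 and 25, against 31 and 44 with RLE size factors, 38 and 23 with the choroid plexus score and 11 and 5 without KO replicate 2. The log2 fold change of Vim turned to -0.00896 with GC content and length offsets and to -0.0146 with the choroid plexus score. That of Steap4 turned to -0.16 in males only, ran from -0.16 to 0.62 when 1 library was left out (negative without WT replicates 1 and 3 and KO replicates 1 and 2), and was -0.12 with the choroid plexus score. The cause of these changes was not tested. The genotype by sex interaction called 0 members, and 1, Gfap, with no filter on low counts. No paired analysis was possible because the labels give no replicate numbers that could pair mice across genotypes. Sample titles carry codes, and 1 code recurs in WT replicate 1 and KO replicates 1 and 2, but what it marks is unknown here and no term was fitted for it. Counts limit Lcn2, Steap4 and Timp1 most.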
